A study of Amaranthus powellii with 13 samples.

Results

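The leaf response of the MCPA-resistant population 501 of green pigweed to MCPA was described across the gene models of a related genome. The response was read from 6 libraries, 3 treated plants (RT, labelled S11, S14 and S110) and 3 untreated plants (RU, labelled S13, S18 and S118), out of 12 libraries with counts and 13 samples in the series. RT plants were sprayed with 1225 g a.e. per ha of MCPA, and the leaf was cut 6 h after application. For RU no spray is named in the sources used here. The 6 libraries of the susceptible population 511 (ST with MCPA, SU without) entered the same fit. There they shared in the estimate of the spread between plants, and otherwise they served only for the comparison of responses. Each library came from 1 leaf of a single plant 8 to 10 cm tall. The plants of population 501 were grown from an open-pollinated seedlot of survivors of repeated MCPA screening, so they are not clones. The study kept the plants for 21 days and then chose the 3 most representative per treatment by survival, so the RT plants are not a random draw. Short reads of green pigweed were aligned to the genome of smooth pigweed, a close relative, and 16304 of 23820 gene models had enough counts to be tested. A transcriptome assembled from long reads of population 511 leaf tissue gave a second count table of the same libraries, with 36678 of 37218 transcripts tested. Its ORFs repeated the counts of their transcript without exception, so the first ORF of each transcript was used. No gene names come with the identifiers in the count tables, so gene models are given by identifier, and leaf markers could not be checked.

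MCPA is a synthetic form of auxin. Auxin joins receptors of the TIR1 and AFB families to Aux/IAA repressors, which are then degraded, and the ARF transcription factors that they held back act on their targets. The targets best known for a fast rise after auxin are the Aux/IAA genes themselves, the GH3 enzymes that conjugate auxin to amino acids, the SAUR genes of cell expansion and the ACS enzymes that make the precursor of ethylene. In a leaf with several cell types, a fall in RNA per cell and a fall in the number of cells that hold it cannot be told apart.

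The total count per library was 22629698 to 27935649 in RT and 28278427 to 29999982 in RU over gene models, so RT was the shallower group. Levels below are in CPM, the count scaled to the size of the library after TMM normalization. They are not divided by gene length, so a level compares plants and not genes. Under TMM the median log2 fold change of all gene models tested was -0.01, and with the total count alone as the scale it was 0.14, a shift that applies to each fold change below. Within a group, log2 CPM of 2 plants correlated at 0.966 to 0.981, and between RT and RU at 0.885 to 0.908, as a description over genes that share these libraries. The median SD of log2 CPM across 3 plants was 0.201 in RT and 0.173 in RU, below the 0.391 in ST and 0.269 in SU. The labels do not give a sequencing or extraction batch. Nothing beyond separate plants defines the replicates. In the fit of 12 libraries each p rests on a spread between plants shared by RT, RU, ST and SU, with 3 plants per group. It does not measure the spread of RT and RU alone.

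More gene models rose than fell 6 h after MCPA, and the rises were larger. By edgeR's quasi-likelihood test with Benjamini-Hochberg adjustment (adjusted p under 0.05, log2 fold change past 2), 629 gene models were called higher in RT than in RU, which is 3.86% of those tested. Another 310 were called lower, which is 1.9%. Without the fold limit the directions were closer to even. There 2545 gene models were higher (15.6%) and 2307 were lower (14.1%). Past a log2 fold change of 1 the counts were 1279 higher and 1253 lower. Past 3 they were 344 and 97, past 4 they were 200 and 39, and past 6 they were 69 and 13. The excess of rises was thus in the large fold changes. The median log2 fold change was 3.15 among those called higher, with 5% to 95% between 2.10 and 7.55. It was -2.57 among those called lower. Over all gene models tested, 3 RT plants lay above 3 RU plants in 4763 (29.2%) and below them in 4743 (29.1%). Among those called, the plants did not overlap in 623 of 629 and in 306 of 310, which describes the calls and does not add to them. The counts without the fold limit depended on the fit. The 6 libraries of population 501 alone gave 3789 higher and 3601 lower. Leaving out ST S13 and SU S116, both of population 511, gave 3715 and 3632. With the fold limit the counts stayed within 495 to 708 higher and 225 to 377 lower in each alternative fit run.

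**Figure D1:**
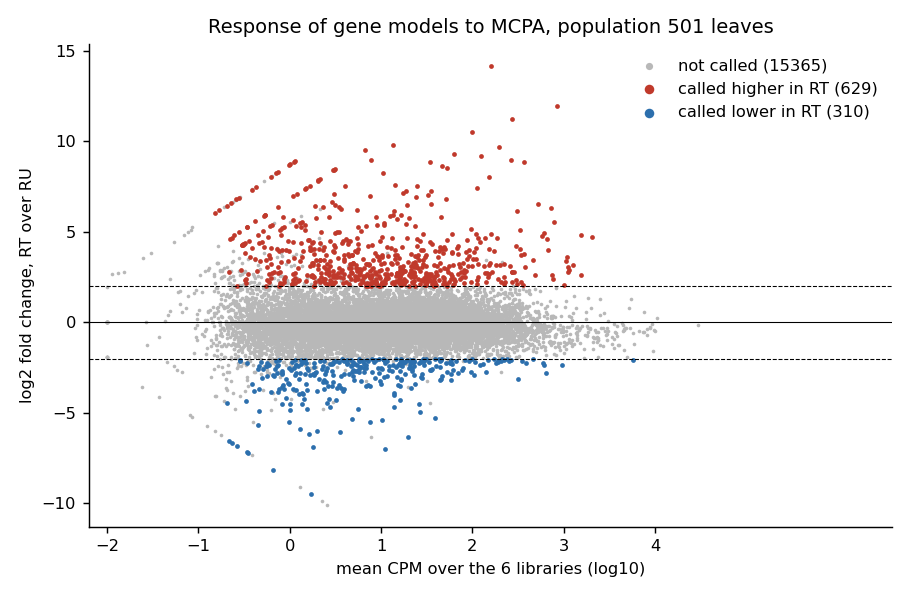
Log2 fold change of RT over RU (vertical axis) against mean CPM over the 6 libraries (horizontal axis, log10), with 1 point per gene model tested. The 629 called higher (red) spread from low to high levels and reach further from 0 than the 310 called lower (blue), and the dashed lines mark the fold limit. Slanted rows of points at the left are gene models with no or few counts in 1 group, whose fitted fold change depends on the prior count, and the lowest means are drawn at the left edge.

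The transcript table had more rises than falls past the fold limit as well. There 1025 transcripts were called higher (2.79% of those tested) and 462 lower (1.26%), with median log2 fold changes of 2.96 and -2.30. Without the fold limit 5644 were higher (15.4%) and 5181 were lower (14.1%). Past a log2 fold change of 1 the order turned, with 2498 higher and 2721 lower, and past 3 it was 501 and 61. Several transcripts can come from 1 gene, so these counts are not counts of genes. The tables share their reads, so the transcripts are a check on alignment and not on the plants.

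Many of the gene models that rose were at a low level in untreated leaves. Over all gene models tested the median level was 13.96 CPM in RU and 14.6 CPM in RT, and 1792 of 16304 lay under 1 CPM in RU. Among the 629, the median level was 1.53 CPM in RU and 16.7 CPM in RT. Under 1 CPM lay 274 of them in RU and 42 in RT. At 1000 CPM or more there were 0 in RU and 20 in RT. A count of 0 in each RU plant was found for 15, and at most 3 counts in each RU plant for 82, so their fold changes have no firm size. A call on RT above RU favours a low level in RU, so this is a description of the calls. The 310 that fell went from a median of 9.92 CPM in RU to 1.54 CPM in RT. Under 1 CPM lay 24 of them in RU and 133 in RT, and 7 had no count in RT, which mirrors the 629. The rise was uneven in amount. The 10 gene models with the largest rise in CPM held 31.4% of the RT counts of the 629 (30.5% to 32.0% by plant), and the top 100 held 83.4%. The fall was more concentrated. The 2 gene models with the largest fall held 39.5% of the RU counts of the 310, and the top 10 held 61.5%. The larger of these 2 falls, that of Ah.15g094930, was near the fold limit, at a log2 fold change of -2.09.

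The called gene models took up a changed share of each library. Those called higher held 7.71%, 7.35% and 7.07% of the total count in RT S11, S14 and S110, and 0.675%, 0.643% and 0.685% in RU S13, S18 and S118. The means were 7.38% ± 0.32 (SD, n = 3) and 0.668% ± 0.022 (SD, n = 3). Those called lower held 0.562% ± 0.049 (SD, n = 3) in RT and 2.42% ± 0.06 (SD, n = 3) in RU. These sets were chosen on the same contrast, so the shares describe the calls. Without the fold limit, gene models that rose went from 7.51% of the RU total to 21.8% of the RT total. Gene models that fell went from 22.43% to 11.05%. A measure that does not use the calls moved as well. The 100 most counted gene models of each library held 34.5%, 34.4% and 30.7% of the count in RT, and 39.8%, 38.0% and 39.1% in RU. Each RT plant lay below each RU plant, and the exact 2-sided permutation test gave p = 0.1, the smallest that 3 against 3 plants allow. The 10 most counted held 10.3% ± 1.0 (SD, n = 3) in RT and 11.2% ± 0.4 (SD, n = 3) in RU, and those plants overlapped (exact permutation p = 0.3). The number of gene models with at least 10 counts was 15371 to 15742 in RT and 15367 to 15601 in RU (exact permutation p = 0.9). At 1 CPM or more there were 14401 to 14514 in RT and 14359 to 14494 in RU (exact permutation p = 0.8). A difference in the number of expressed gene models was therefore not detected, and 3 plants per group could not have passed 0.05.

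By level, the response had a tilt that the calls do not show. Gene models were put into classes by their mean CPM over all 6 libraries. In the class of 1000 CPM and over, 100 of 129 had a negative fold change, and the median log2 fold change was -0.48. By plant this median was -0.36 in S11, -0.36 in S14 and -0.68 in S110, each against the mean of RU. Scaled to the total count alone, 95 of 129 were negative and the median was -0.33. In the classes from 100 to 1000 CPM, 10 to 100 CPM and 1 to 10 CPM the medians were -0.14, 0.05 and -0.07. Of the 100 gene models with the highest mean CPM, 83 were negative with a median of -0.48. In the transcript table, 92 of 98 transcripts at 1000 CPM and over were negative with a median of -0.39. At 100 to 1000 CPM, 1061 of 1557 transcripts were negative with a median of -0.33, so in that table the tilt reached further down. Without the fold limit 22 of 129 gene models in the highest class were lower, which is 17.1% against 14.1% of all tested, and 15 were higher, which is 11.6% against 15.6%. With the fold limit 1 was called lower.

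The same class held calls in the other direction. With the fold limit 9 of its 129 gene models were called higher, 6.98% (exact binomial 95% interval 3.24% to 12.8%), against 3.86% of all tested. That share was 3.20% without RT S11, and 0 of 98 transcripts in that class were called (interval up to 3.69%). From 100 to 1000 CPM, 4.59% were called higher and 1.57% lower. From 10 to 100 CPM the shares were 2.89% and 1.27%, and from 1 to 10 CPM they were 4.62% and 2.64%. Under 1 CPM, 5.35% of 1606 were called higher, and leaving out 1 plant in turn gave 1.60% to 3.31%, on a set of gene models that changed with the filter. The effect of fewer plants and that of the filter on this share cannot be told apart. Intervals of these shares cover counting error only, and gene models are not independent.

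**Figure D2:**
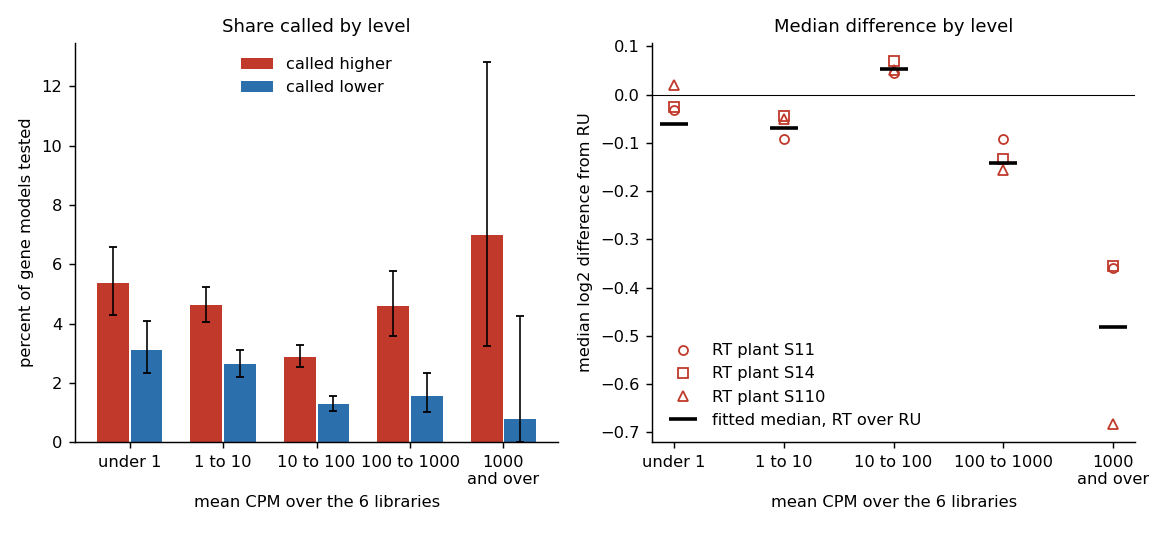
Left, percent of gene models tested that were called higher (red bars) or lower (blue bars) in RT, by class of mean CPM, with exact binomial 95% intervals. Right, the median log2 difference from RU in each class, fitted over 3 plants (black bars) and for each RT plant (open symbols): in the class of 1000 CPM and over each plant lies below 0, and S110 at -0.68 lies lowest.

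The largest rise in level was that of Ah.02g123380. It stood at 4173, 3784 and 3801 CPM in RT S11, S14 and S110, and at 120, 169 and 159 CPM in RU S13, S18 and S118. The plants within each group were close, and the groups lay far apart. Its log2 fold change was 4.72 (SE 0.38, adjusted p = 3.7e-05 by edgeR). Ah.11g045770 stood at 3420, 3096 and 2561 CPM in RT and 101, 96.9 and 118.1 CPM in RU. S110 was the lowest RT plant and still over 20 times the highest RU plant. Its log2 fold change was 4.85 (SE 0.38, adjusted p = 3.4e-05 by edgeR). The largest fall was that of Ah.15g094930, at 2380, 2421 and 1706 CPM in RT and 10481, 8127 and 9086 CPM in RU. It was the only gene model called lower in the class of 1000 CPM and over. Its log2 fold change was -2.09 (SE 0.42, adjusted p = 0.0043 by edgeR). Without RT S110 it was -1.94 and without RU S13 it was -1.99, both short of the fold limit. Ah.08g211720 stood at 235, 258 and 453 CPM in RT and 1537, 1666 and 1653 CPM in RU. RU plants were nearly equal, while S110 had the smallest fall of the RT plants. Its log2 fold change was -2.36 (SE 0.40, adjusted p = 0.0018 by edgeR).

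In the transcript table the largest rises were those of transcripts 387201 and 531899. Transcript 387201 stood at 1850, 1742 and 1365 CPM in RT and 52.0, 54.0 and 60.6 CPM in RU, with a log2 fold change of 4.90. Transcript 531899 stood at 1826, 1621 and 1287 CPM in RT and 231, 182 and 254 CPM in RU, with a log2 fold change of 2.83. In both, S11 was the highest and S110 the lowest RT plant. The largest falls were those of transcripts 614584 and 613001. Transcript 614584 stood at 38.4, 161 and 206 CPM in RT and 1317, 960 and 499 CPM in RU, so its plants ranged widely in both groups. Transcript 613001 stood at 59.99, 58.9 and 60.2 CPM in RT and 389, 619 and 540 CPM in RU, so its RT plants were nearly equal. Both were called, with log2 fold changes of -2.77 and -3.11 and adjusted p = 0.027 and 0.021 by edgeR. Each missed the threshold when any 1 of 4 of the 6 plants was left out, with adjusted p up to 0.078 for 614584 without S11 and 0.073 for 613001 without S14.

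Of the auxin pathway, the study's text pairs few members with identifiers. The identifier printed there for ACS lacks its last digit and begins only 1 identifier of the files, Ah.12g051890. ACS belongs to the enzymes that make the ethylene precursor, and it fell. It stood at 0.594, 1.01 and 0.850 CPM in RT and 5.96, 5.88 and 7.32 CPM in RU, with no overlap, and its log2 fold change was -2.96 (SE 0.60, adjusted p = 0.0049 by edgeR). The transcript annotated as ACS fell by 2.86 on the log2 scale. The transcript annotated as an auxin-repressed protein of low mass rose. It stood at 461, 463 and 336 CPM in RT and 68.6, 55.0 and 73.4 CPM in RU, with a log2 fold change of 2.68. The F-box transcript At3g23880 stood at 1.69, 3.02 and 3.35 CPM in RT and 3.79, 1.12 and 2.53 CPM in RU. Its plants overlapped, and its log2 fold change was 0.12 (SE 0.44, adjusted p = 0.87 by edgeR), with no steady sign when 1 plant was left out. These members had been singled out by the study on these samples, so they are no independent sample of the pathway.

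**Figure D3:**
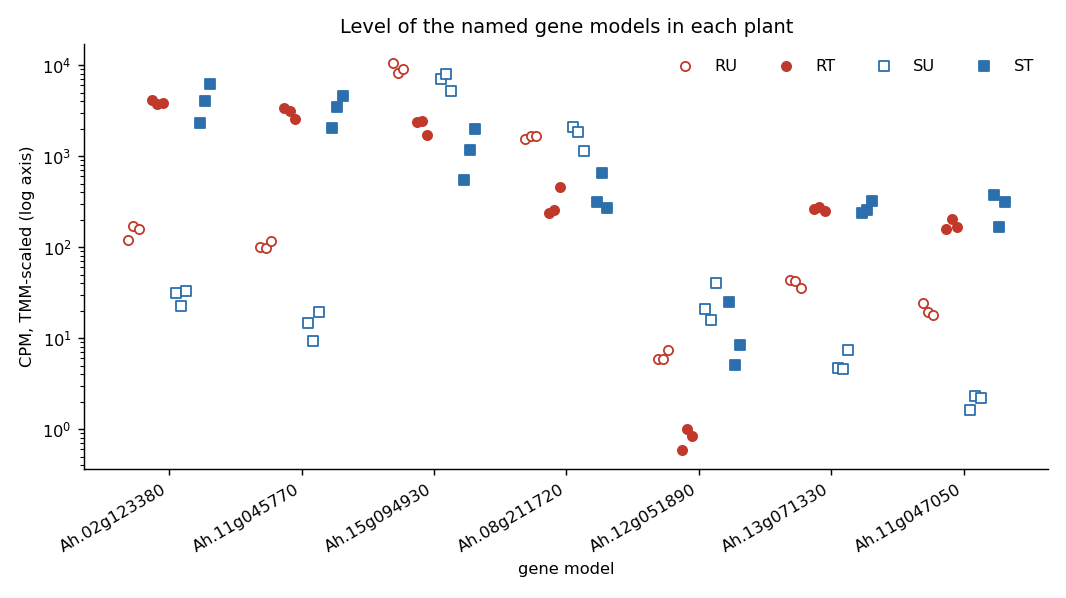
CPM (log axis) of the named gene models in each of 12 plants, with population 501 as red circles, population 511 as blue squares, open symbols for untreated and filled symbols for treated plants. In each of these gene models the 3 RT plants and the 3 RU plants do not overlap. For the 2 largest rises and the 2 largest falls this was a condition of choice. All gene models shown were called, so the lack of overlap does not add to the calls. In the 2 at the right the RU plants lie above the SU plants, as they do in Ah.02g123380, Ah.11g045770 and Ah.15g094930. In Ah.08g211720 the RU and SU plants overlap, and in Ah.12g051890 the RU plants lie below.

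Among called gene models, the RT plants moved by similar amounts. Over the 629, the median log2 difference from the mean of RU was 2.97 in S11, 2.93 in S14 and 3.02 in S110. Over the 310 it was -2.69, -2.56 and -2.30, so S110 fell least. The calls were made on these same plants, so these medians describe the calls and do not add to them. S110 was the most extreme plant in 37.2% of the 629 and in 19.0% of the 310. In single gene models the RT plants could differ more than in these medians. They were over 4-fold apart in 59 of the 629 and in 58 of the 310. Of the 310, 133 lay under 1 CPM in RT, where few counts set such a ratio. The share over all gene models tested was not taken, so these counts do not set the called gene models apart.

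Called gene models lay beside each other more often than their share of the genome list. Identifiers carry a prefix of 2 digits, of which there are 17, and a number that rises in steps of 10, with 0 steps of another size. No genome coordinates were used, so neighbours are neighbours in identifier order within a prefix. Of the 629 gene models called higher, the next one was also called higher in 69, which is 10.97% (exact binomial 95% interval 8.64% to 13.7%). Of all 23820 gene models listed, 2.64% were called higher. Of the 310 called lower, the next one was called lower in 15, which is 4.84% (2.73% to 7.86%), against 1.30% of all listed. The next one of a gene model called higher was called lower in 11, which is 1.75%, against 1.30%. The next one of a gene model called lower was called higher in 16, which is 5.16%, against 2.64%, beside the 15 called lower. Both count neighbours called in opposite directions, read along the identifiers 1 way or the other, on few pairs. Among tested gene models alone, the shares with the next one called the same way were 13.7% against 3.86% and 5.16% against 1.90%. Without the fold limit they were 16.7% against 10.7% and 15.2% against 9.69%, a smaller contrast.

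The excess shrank within a few gene models. For those called higher, the share was 7.15% at a distance of 2 gene models and 5.56% at 3. It averaged 3.13% over distances of 4 to 10 and 2.76% over 11 to 50, near the 2.64% of the list. For those called lower it was 3.23% at 2 and 0.968% at 3, and it averaged 1.53% over 4 to 10 and 1.79% over 11 to 50, above the 1.30% of the list. Across all tested gene models, neighbouring log2 fold changes correlated at 0.12 (Pearson) and 0.10 (Spearman) over 16286 pairs, at 0.04 and 0.03 at a distance of 2, and within 0.01 of 0 at a distance of 5. These pairs share their libraries and their neighbours, so no test was made.

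**Figure D4:**
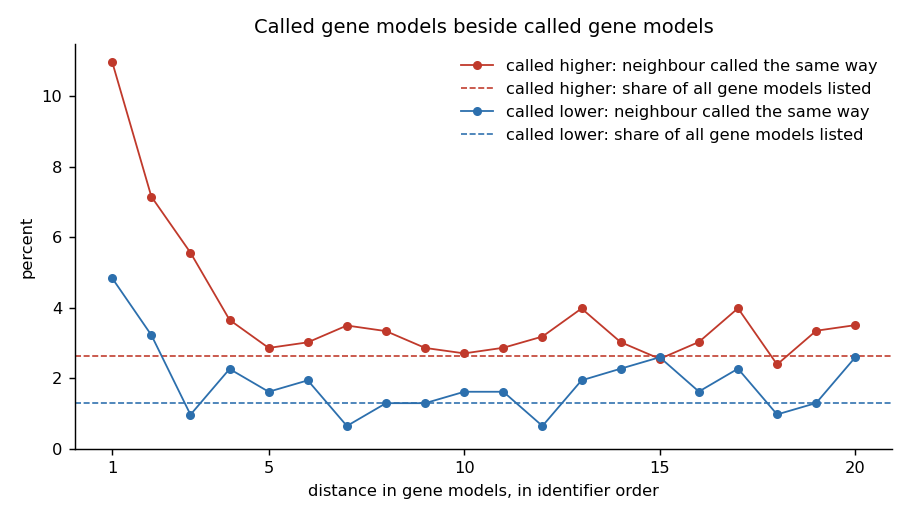
Percent of called gene models whose neighbour at a given distance (horizontal axis, in gene models) was called the same way, for those called higher (red) and lower (blue), with the share of all gene models listed as dashed lines. The red line starts at 10.97% at a distance of 1 and falls to 2.86% at a distance of 5, near the dashed line at 2.64%, and lies mostly just above that line beyond it.

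Level was looked at beside this pattern. A neighbour on either side called higher was found for 124 of the 629 (19.7%), against 5.09% of all 23820 gene models listed. By level the shares were 15.1% under 1 CPM, 20.2% at 1 to 10, 19.0% at 10 to 100 and 25.3% at 100 and over. The intervals of these shares overlap. In the 69 adjacent pairs called higher, the lower member stood at a median of 27.1% of the RT level of the higher one. It was under 10% in 20 pairs and under 1% in 3 pairs. Both members reached 10 CPM in RT in 34 of 69 pairs. When only called gene models with a mean of 10 CPM and over were counted, the next one was called higher in 21 of 310, which is 6.77%, against 1.30% of the list. Reads of 1 gene model counted in its neighbour, and near-identical copies side by side, are 2 ways in which counts of neighbours can be tied. How strand and shared reads were handled in counting is unstated, and the part of either in the pattern was not tested.

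Runs of 3 or more neighbours called the same way numbered 9 for rises, with 32 gene models on 7 prefixes, and 3 for falls, with 9 gene models on 2 prefixes. The longest run had 5 members, on prefix 09. Its summed level was 1170, 571 and 428 CPM in RT and 8.01, 11.5 and 17.8 CPM in RU, and its log2 fold changes ran from 2.26 to 7.01. S11 stood highest, at over 2 times S110, and the groups did not overlap. A run of 4 on prefix 04 summed to 1508, 996 and 1405 CPM in RT and 56.1, 51.2 and 50.4 CPM in RU. In this run 1 member held 95.9% of the RT level, and the lowest stood at 1.12 CPM. In 7 of the 9 runs called higher, 1 member held over 80% of the RT level. The run of 4 on prefix 06 was the most even. Its highest member held 46.6%, all 4 lay between 28.2 and 93.7 CPM in RT, and their log2 fold changes ran from 2.79 to 4.14. Of the runs that fell, both on prefix 01 were even, and that on prefix 06 ranged from 2.58 to 27.9 CPM in RU. On prefix 01 a run of 3 summed to 25.7, 17.4 and 18.8 CPM in RT and 129, 159 and 122 CPM in RU. RT and RU plants did not overlap in any member of the 12 runs, which their calls nearly fix.

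**Figure D5:**
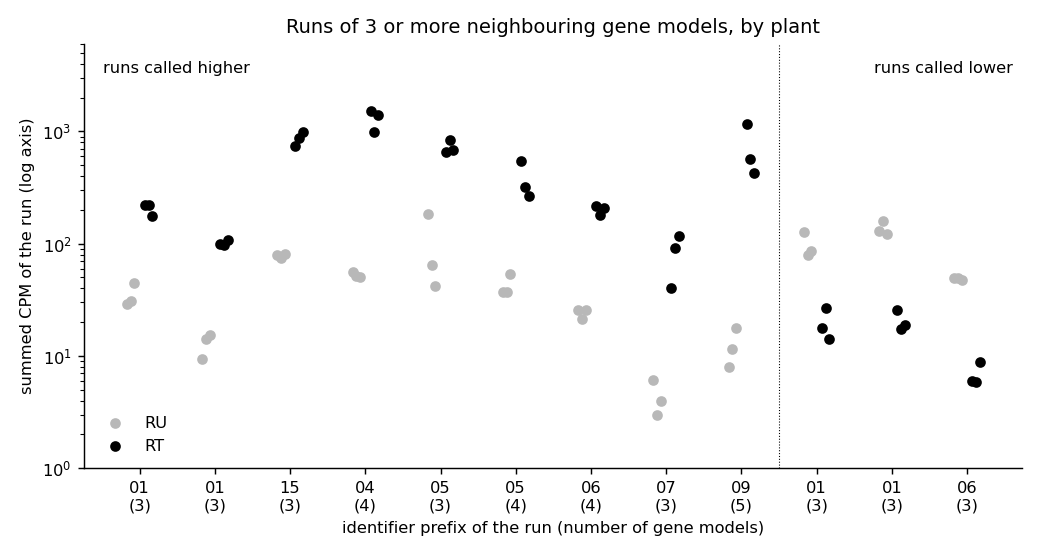
Summed CPM (log axis) of each run of 3 or more neighbouring gene models in RT plants (black) and RU plants (grey), with the identifier prefix and the number of gene models below. RT lies above RU in each of the 9 runs at the left and below it in each of the 3 at the right, and the run of 5 on prefix 09 spans 428 to 1170 CPM within RT.

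By prefix, the response was spread over the whole list. Among prefixes 01 to 16, the share called higher ran from 2.705% (prefix 04, interval 1.87% to 3.78%) to 5.52% (prefix 08, interval 4.22% to 7.08%). The share called lower ran from 1.37% (prefix 06) to 3.52% (prefix 08, interval 2.49% to 4.82%). Of these 16 prefixes, prefix 08 was highest in both directions. Prefix 00, with 107 gene models tested, had 8 called higher and 0 called lower. The prefixes were compared after their values were seen, and no test was made.

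The response of population 511 was set beside that of population 501. The contrasts share no library. Without a fold limit, 11.5% of all gene models were higher in ST than in SU and 10.1% were lower. Of the 629 called higher in RT, 614 had the same sign in population 511, 488 were higher there at an adjusted p under 0.05 and 0 were lower, with a median log2 fold change of 2.78. Of the 310 called lower, 298 had the same sign, 170 were lower there and 0 were higher, with a median of -1.81. The share of all gene models tested with the same sign in both populations is not given here, so the same-sign counts have no background. The members were chosen on the contrast in population 501, so a smaller median in population 511 is no sign of a smaller response. Of the gene models in runs, all 32 and all 9 had the same sign in population 511, and 28 and 7 were called there without the fold limit. Of the 12 runs, 1 had no member called in population 511, a run of 3 on prefix 01. It rose in population 501, at 223, 220 and 176 CPM in RT against 29.1, 30.8 and 45.0 CPM in RU, while its log2 fold changes in population 511 were 0.30 to 1.24 with 0 called. The interaction of its members was not called either (lowest adjusted p = 0.078 by edgeR).

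The difference between the responses, tested as an interaction by edgeR, was called in 2 gene models (0.0123% of those tested) and in 24 transcripts (0.0654%). At an unadjusted p under 0.05 it was 1000 gene models, 6.13%. DESeq2 called 169, edgeR called 51 without ST S13 and SU S116, and edgeR called 0 without RT S11. Both gene models were singled out after their values were seen. Ah.13g071330 stood at 261, 276 and 249 CPM in RT and 43.7, 42.1 and 35.8 CPM in RU. In population 511 it stood at 240, 254 and 325 CPM in ST and 4.66, 4.62 and 7.35 CPM in SU. Treated plants of the populations were at like levels, and the untreated plants of population 501 were higher. Ah.11g047050 stood at 159, 203 and 165 CPM in RT and 24.3, 19.5 and 17.8 CPM in RU, beside 374, 167 and 316 CPM in ST and 1.61, 2.31 and 2.19 CPM in SU. Its untreated plants differed in the same way.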

How the data were processed

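Leaf RNA of single plants was sequenced from stranded mRNA libraries. The authors trimmed the reads with fastp, aligned them with STAR to the smooth pigweed genome and with Bowtie 2 to a long-read transcriptome, and summarized the latter with featureCounts. The deposited values are raw counts, with no normalization. The counter of the first table and the handling of strand and of reads with several matches are not stated in the sources used here. The long-read library was not analysed here.

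Both tables were fitted with edgeR 4.0.16 in R 4.3.3: filterByExpr (minimum count 10, minimum total 15), TMM, 1 mean per group over 12 libraries, robust glmQLFit, glmQLFTest and Benjamini-Hochberg adjustment. Calls needed an adjusted p under 0.05 together with a log2 fold change past 2. The interaction had no fold limit. The SE of a log2 fold change was derived from the test, as its absolute value divided by the square root of the F statistic. DESeq2 1.42.0 with apeglm 1.24.0, RLE scaling, other filters and left-out plants were alternatives. Classes of level used the mean CPM over RT and RU. Exact permutation tests were 2-sided. The fit was tested on simulated data.

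Named features were those the study pairs with identifiers and, per table, the 2 with the largest rise and the 2 with the largest fall in mean CPM among those called without overlap. These members, lists and rules were chosen with earlier results of these data known. The identifier printed for SAUR36 begins 10 identifiers of the files, so it is not reported here. Lists of genes by function could not be used without gene names.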

Additional observations from a re-analysis of the deposited data

Results flagged for a closer look

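In 2 gene models the response to MCPA differed between the populations by edgeR's interaction test. For Ah.13g071330 the log2 fold change was 2.69 in population 501 and 5.62 in population 511, a difference of -2.92 (SE 0.28, adjusted p = 0.0084 by edgeR). For Ah.11g047050 it was 3.10 and 7.13, a difference of -4.03 (SE 0.40, adjusted p = 0.0084 by edgeR). In both, each of the 3 RU plants lay above each of the 3 SU plants, which was not tested here. The same held for Ah.02g123380, Ah.11g045770 and Ah.15g094930, and not for Ah.08g211720 and Ah.12g051890. The responses of Ah.02g123380 and Ah.11g045770 differed by -2.46 and -3.01, which was not called (adjusted p = 0.13 and 0.078 by edgeR).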

How the results depend on the processing

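No paired analysis was possible because RT and RU share no replicate number. The counts with the fold limit, in both tables and both directions, stayed within 1.5 times under each alternative. Of the calls, 600 of 629 and 286 of 310 were also called in the fit of 6 libraries alone, and 620 and 309 by DESeq2. Without the fold limit, leaving out 1 plant gave 1589 to 2113 higher and 1421 to 1845 lower, and the lower count was 3601 in the fit of 6 libraries and 3632 without ST S13 and SU S116. The interaction gave 169 gene models by DESeq2, 51 without ST S13 and SU S116, and 0 to 4 when a plant was left out (0 without RT S11, 4 without RT S110). The share with a called next neighbour was 16.7% for rises and 15.2% for falls without the fold limit, and, chosen after seeing the data, 6.77% for rises at 10 CPM and over. Runs numbered 18 and 5 when 1 uncalled gene model was allowed inside them, and 55 and 42 without the fold limit. Both the fit of 6 libraries and the fit without ST S13 and SU S116 were added for the neighbours after seeing the data, and gave 11.7% and 12.1% for rises. The shares called by class of level moved beyond their intervals in 43 of the alternatives, among them each left-out plant under 1 CPM, and the number of gene models tested changed with the filter. Transcripts 614584 and 613001 missed the threshold without 1 of 4 plants each. The log2 fold change of transcript At3g23880, which was not called, changed sign from 0.12 to -0.07 without RT S110 and -0.25 without RU S18, and leaving out other plants gave up to 0.55. No other result changed direction under the alternatives run. The causes of these shifts were not tested. The median SE of a log2 fold change was 0.86 under 1 CPM and 0.19 at 10 to 100 CPM, so smaller differences could be detected at the higher level.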
